A study of Mus musculus with 18 samples.

Results

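The genes described here are 10 genes of the oxidative stress defense, measured in mouse hearts: the NRF2 targets Hmox1, Nqo1, Gclc, Gclm, Srxn1, Txnrd1 and Slc7a11, the metallothioneins Mt1 and Mt2, and Sod2. They were chosen by name, and the estimated counts of all annotated transcripts of each gene were summed in each library. They make up 10 of the 34989 genes to which the transcripts were summed, and all 10 passed the filter on low counts in every comparison. RNA was sequenced from 18 libraries of explanted hearts of wild type mice, labelled C57B/L6 and 12 weeks old, whereas the methods give a younger age. Hearts were flushed with the preservation solution HTK, stored in it on ice for 0, 4 or 8 h, and perfused ex vivo with Krebs buffer for 1 h. The left ventricle (LV) and the right ventricle (RV) were then frozen, with 3 libraries for each ventricle and storage time. The 0 h hearts carried the same explantation, flush and perfusion, and no heart was sampled before perfusion. Both sexes are named in the methods, but the labels do not say which mouse was which.

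NRF2 is a transcription factor that is held at low levels by KEAP1 and accumulates when oxidants or electrophiles modify KEAP1. It then pairs with small MAF proteins on antioxidant response elements and raises genes for glutathione synthesis, the thioredoxin system, quinone reduction and heme breakdown, while BACH1 competes for the same elements and represses them. Metallothioneins are small cysteine-rich proteins that bind zinc and copper, and their genes respond to metals through the factor MTF1 and to glucocorticoids and cytokines. In the heart these systems are known for limiting oxidant injury at reperfusion.

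The libraries held between 22552581 and 46236771 estimated counts, of which mitochondrial genes took between 22.7% and 34.4%. Levels below are CPM, counts scaled to a common library size after TMM normalisation. Levels of different genes are compared only as TPM, which correct for transcript length as well. A gene was called higher or lower where edgeR's quasi-likelihood test gave a Benjamini-Hochberg adjusted p under 0.1 over all genes and the fold change exceeded 1.5. The labels name the 3 libraries of a group as separate samples without naming hearts, and p-values measure the spread between these libraries. The Y-linked gene Ddx3y separated the libraries in the same way in both ventricles. It lay between 1.47 and 2.47 CPM in replicate 2 at 0 h and in replicate 3 at 4 and 8 h, and between 60.5 and 117 CPM in the 12 other libraries. RV 8 h replicate 3 stood apart with the lowest summed level of 7 cardiomyocyte markers, 27977 CPM, against 40818 to 67006 CPM in the other libraries.

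Most of these genes were higher after storage and reperfusion than at 0 h. In LV, 5 of the 10 genes were called higher at 4 h (Hmox1, Txnrd1, Gclc, Slc7a11 and Mt2), where 2.40% of the 14564 genes tested were called higher. At 8 h in LV the 5 genes called higher were Hmox1, Txnrd1, Slc7a11, Mt1 and Mt2, against 5.46% of all genes. In RV, 7 genes were called higher at 4 h, against 6.17% of the 14622 genes tested. The same 7 genes, namely Hmox1, Txnrd1, Gclc, Slc7a11, Srxn1, Mt1 and Mt2, were called higher in RV at 8 h, against 13.0% of all genes. None of the 10 was called lower, where 0.398% and 1.26% of all genes were called lower in LV at 4 and 8 h and 3.91% and 5.26% in RV. Nqo1, Gclm and Sod2 were called in none of the 4 comparisons.

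The median log2 fold change of the 10 genes was 1.34 in LV at 4 h, 0.92 in LV at 8 h, 1.65 in RV at 4 h and 1.74 in RV at 8 h. Over all genes the median lay between -0.07 and 0.00 in these comparisons. The calls in LV depended on single libraries, and at 4 h so did the share of all genes called. At 4 h in LV, 0 of the 10 genes were called without LV 0 h replicate 2 or 3 or without LV 4 h replicate 1 or 3, fits in which between 0.101% and 0.574% of all genes were called, and 2 (Hmox1 and Txnrd1) without LV 0 h replicate 1. At 8 h in LV, 0 were called without LV 0 h replicate 2, 1 (Slc7a11) without LV 0 h replicate 3, 2 (Slc7a11 and Mt2) without LV 8 h replicate 3, and 3 without LV 0 h or LV 8 h replicate 1. At 4 h in RV, 3 (Gclc, Txnrd1 and Mt2) were called without RV 0 h replicate 3 and 4 without RV 0 h replicate 2. For these fits at 8 h in LV and at 4 h in RV the shares of all genes called are not given here. Losses there cannot be read as particular to the 10 genes. At 8 h in RV the same 7 were called whichever library was left out, with Nqo1 called lower in addition without RV 8 h replicate 2.

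**Figure D1:**
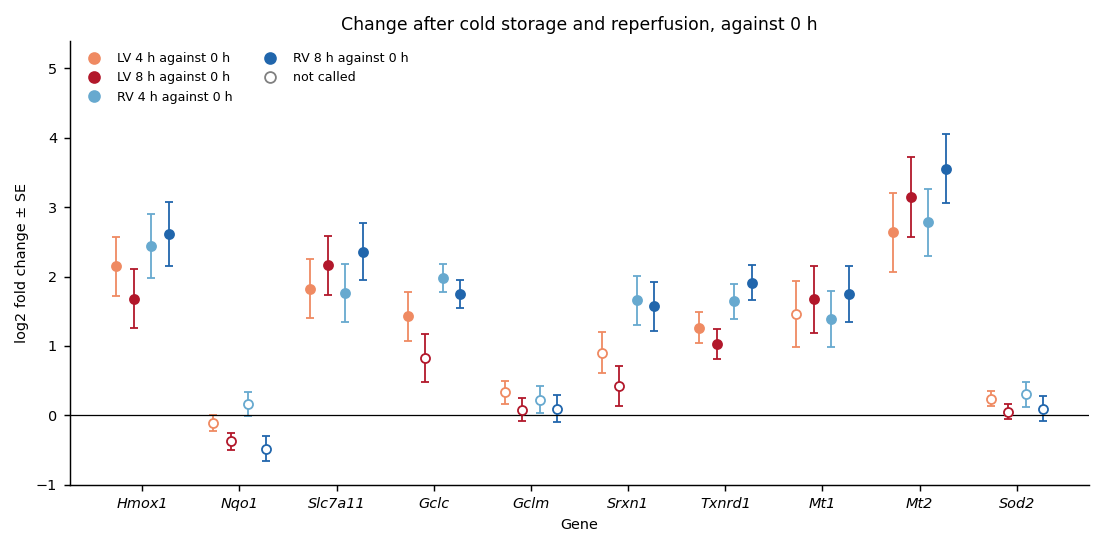
Log2 fold change with its standard error (y axis) of each gene (x axis) against 0 h, for LV at 4 and 8 h (light and dark red) and RV at 4 and 8 h (light and dark blue), with open circles for changes that were not called. Mt2 has the largest values in all 4 comparisons, from 2.64 to 3.55, and Nqo1, Gclm and Sod2 carry open circles throughout.

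Without storage the genes differed widely in length-corrected level. In LV at 0 h the highest was Mt1 with 421 ± 94.6 TPM (SD, n = 3), followed by Mt2 and Sod2. Mt2, at 159 ± 49.4 TPM, and Sod2, at 147 ± 5.70 TPM, did not differ beyond their spread. Nqo1 (37.7 ± 5.48 TPM) and Txnrd1 (23.3 ± 4.93 TPM) came next, and Hmox1, Gclm and Srxn1 lay at 16.9, 13.5 and 11.8 TPM with overlapping values. Gclc stood at 6.43 ± 1.23 TPM and Slc7a11, the lowest, at 0.190 ± 0.0771 TPM. RV at 0 h had the same order of means, from Mt1 at 446 ± 89.8 TPM to Slc7a11 at 0.186 ± 0.0151 TPM, and there Nqo1 and Txnrd1 overlapped. At 8 h Mt2 had passed Mt1 in RV, at 1435 against 1122 TPM, with standard deviations of 645 and 446 TPM.

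Hmox1 (chr8:75093621-75100589, plus strand, GRCm38) encodes heme oxygenase 1, which opens heme to biliverdin, iron and carbon monoxide. In LV it was measured at 16.2, 24.4 and 13.1 CPM at 0 h, at 107, 62.2 and 68.2 CPM at 4 h, and at 60.4, 25.8 and 85.5 CPM at 8 h. Every stored LV library lay above every 0 h library, although replicate 2 at 8 h exceeded the highest 0 h library by little. The log2 fold change was 2.15 ± 0.43 (SE) at 4 h (adjusted p = 0.0526) and 1.68 ± 0.42 at 8 h (adjusted p = 0.0635).

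In RV Hmox1 rose from 16.7, 19.0 and 14.5 CPM at 0 h to 138, 82.3 and 48.7 CPM at 4 h and 170, 53.6 and 81.8 CPM at 8 h. Stored and 0 h libraries were well separated, and the stored libraries differed widely among themselves. Its log2 fold change was 2.44 ± 0.46 at 4 h (adjusted p = 0.020) and 2.61 ± 0.46 at 8 h (adjusted p = 0.00864). The coding transcript made up between 92.8% and 96.4% of the group mean TPM of Hmox1, and a transcript with a retained intron the rest.

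**Figure D2:**
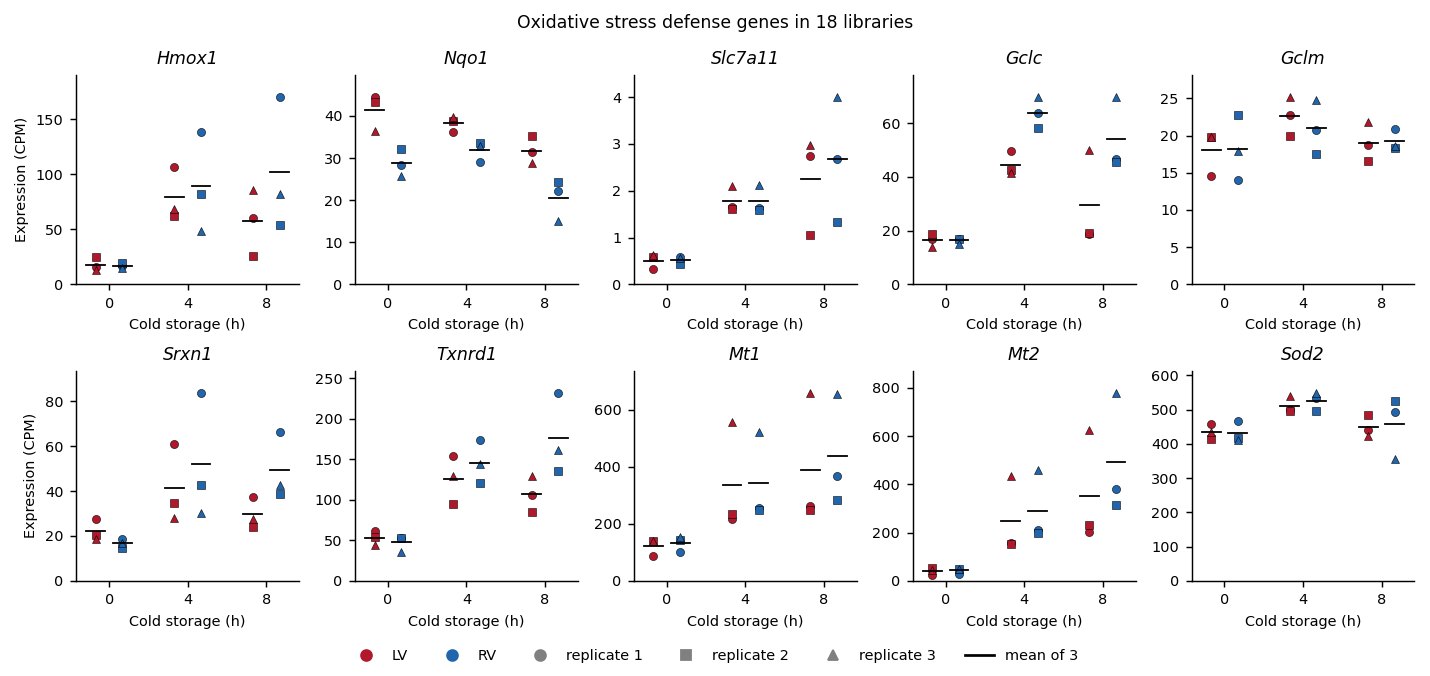
CPM (y axis, linear, from 0) of each of the 10 genes by hours of cold storage (x axis) in LV (red) and RV (blue), with 1 symbol per library, shaped by replicate number, and a bar at the mean of 3. Mt1 and Mt2 have their highest library in replicate 3 at 4 h and at 8 h in both ventricles, and Nqo1 lies lower in RV than in LV at every time.

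Nqo1 (chr8:107388225-107403206, minus strand) encodes a quinone reductase and is one of the most used NRF2 targets. It was not called in any comparison with 0 h, and its levels at 8 h lay below those at 0 h. LV libraries held 44.5, 43.4 and 36.3 CPM at 0 h, 36.2, 38.9 and 39.6 CPM at 4 h, and 31.4, 35.2 and 28.7 CPM at 8 h. RV libraries held 28.4, 32.0 and 25.7 CPM at 0 h, 29.1, 33.5 and 32.8 CPM at 4 h, and 22.2, 24.2 and 15 CPM at 8 h. All 8 h libraries lay below all 0 h libraries of the same ventricle, by a log2 fold change of -0.38 ± 0.12 in LV (adjusted p = 0.113) and -0.48 ± 0.18 in RV (adjusted p = 0.103), neither of which passed the call. RV 8 h replicate 3, the library with the low cardiomyocyte markers, had the lowest Nqo1. All Nqo1 counts came from 1 annotated transcript.

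Slc7a11 (chr3:49892526-50443614, minus strand) encodes xCT, the subunit that carries cystine into the cell for glutathione synthesis. It was the least abundant of the genes, with 13 to 108 counts per library, and rested on few reads throughout. LV values were 0.330, 0.574 and 0.622 CPM at 0 h, 1.65, 1.61 and 2.10 CPM at 4 h, and 2.74, 1.05 and 2.97 CPM at 8 h. RV values were 0.585, 0.440 and 0.555 CPM at 0 h, 1.63, 1.59 and 2.11 CPM at 4 h, and 2.67, 1.33 and 4.00 CPM at 8 h. The 0 h and stored libraries did not overlap in either ventricle. The log2 fold change was 1.83 ± 0.43 and 2.16 ± 0.43 in LV at 4 and 8 h (adjusted p = 0.0820 and 0.0332), and 1.76 ± 0.41 and 2.36 ± 0.41 in RV (adjusted p = 0.0399 and 0.00821).

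The transcripts of Slc7a11 were not read evenly. The full-length coding transcript, ENSMUST00000029297, was estimated at 1.03 to 7.22 counts in the 6 libraries at 0 h and at 22.6 to 75.4 counts in the 12 stored libraries. A shorter transcript with a retained intron, ENSMUST00000142932, was estimated at 8.93 to 17.2 counts at 0 h and at 5.85 to 22.1 counts after storage, so that its ranges overlapped. On average the coding transcript took 8.29% of the gene's TPM in LV at 0 h, 40.4% at 4 h and 51.2% at 8 h, and in RV 9.08%, 51.4% and 54.1%. The coding transcript has 9223 bases and the retained intron transcript 3162. With offsets for the mean transcript length in each library the gene's log2 fold change was 1.28 and 1.33 in LV (adjusted p = 0.240 and 0.153) and 1.06 in RV at 4 h (adjusted p = 0.215), none of which was called, while 1.57 in RV at 8 h was called (adjusted p = 0.0481). Other genes lie within the Slc7a11 locus, among them pseudogenes and an antisense gene, and 4.01% of its 31-base words occur in transcripts of other genes.

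Gclc and Gclm encode the catalytic and the modifier subunit of glutamate-cysteine ligase, the first enzyme of glutathione synthesis, and Gclc rose while Gclm was not called. Gclc (chr9:77754535-77794485, plus strand) was measured in LV at 17, 18.8 and 14.0 CPM at 0 h, at 49.7, 42.6 and 41.6 CPM at 4 h, and at 18.7, 19.2 and 50.2 CPM at 8 h. The 4 h libraries were all high, whereas 2 of the 3 LV libraries at 8 h lay at or barely above the highest 0 h library. For LV this gave a log2 fold change of 1.43 ± 0.35 at 4 h (adjusted p = 0.0963) and of 0.82 ± 0.35 at 8 h (adjusted p = 0.197).

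In RV Gclc rose from 17.1, 17 and 15.1 CPM at 0 h to 63.9, 58.1 and 69.8 CPM at 4 h and 46.8, 45.7 and 69.7 CPM at 8 h. No stored RV library came near the 0 h values, and the log2 fold change was 1.98 ± 0.21 at 4 h (adjusted p = 0.00306) and 1.74 ± 0.20 at 8 h (adjusted p = 0.00165). These were the smallest adjusted p-values among the 10 genes in RV.

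Gclm (chr3:122245557-122270732, plus strand) stayed between 14.1 and 25.2 CPM in all 18 libraries. Its log2 fold changes lay between 0.08 and 0.33, with standard errors of 0.16 to 0.20, and none was called, although the 4 h libraries in LV all lay above the 0 h libraries. The ratio of Gclc to Gclm on the TPM scale was 0.489 ± 0.139 in LV at 0 h, 0.894 ± 0.101 at 4 h and 0.744 ± 0.335 at 8 h, and in RV 0.455 ± 0.0666, 1.43 ± 0.139 and 1.16 ± 0.268. The stored and 0 h ratios did not overlap in RV and in LV at 4 h, where an exact two-sided permutation test gave 0.1, the smallest p that 3 against 3 libraries allow (0.114 after adjustment over 8 such comparisons of 2 ratios). In LV at 8 h the ratio overlapped with 0 h (exact permutation p = 0.4). Gclm shares 5.85% of its 31-base words with other genes, among them Ppia, and a pseudogene lies within it on the same strand.

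Srxn1 (chr2:152105516-152111376, plus strand) encodes sulfiredoxin, which restores overoxidized peroxiredoxins. In LV its libraries held 27.6, 20.3 and 18.6 CPM at 0 h, 61.1, 34.6 and 28.2 CPM at 4 h, and 37.2, 24.0 and 27.7 CPM at 8 h. The 4 h libraries all exceeded the 0 h ones, with replicate 3 only just above, and at 8 h the groups overlapped. This amounted to a log2 fold change of 0.90 ± 0.29 at 4 h (adjusted p = 0.185) and 0.42 ± 0.29 at 8 h (adjusted p = 0.407). RV showed a clear gap, from 18.8, 14.4 and 16.9 CPM at 0 h to 83.6, 42.8 and 30.1 CPM at 4 h and 66.6, 38.7 and 42.8 CPM at 8 h. There the log2 fold change was 1.66 ± 0.35 at 4 h (adjusted p = 0.0299) and 1.57 ± 0.35 at 8 h (adjusted p = 0.0204).

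The region before the start of Srxn1 is shown because it held the AP-1 site, TGACTCA, 2 times on the minus strand within 300 bases. Of 32851 promoter windows 5.2% held this site at least once. Neither site of Srxn1 lies in a match to the letters searched for the core of the antioxidant response element, TGACNNNGC. The site 45 bases before the start reads TGAGTCAGC on the strand of the gene, which differs from these letters only in having G in place of C. Other forms of the element were not searched. The only match of Srxn1 to TGACNNNGC lies 28 bases past the start, outside the bases shown. The capitals mark the AP-1 sites, written on the strand of the gene. The bases are from RefSeq (GRCm38.p6), chr2:152105274-152105515, and end before the first annotated start.
Srxn1: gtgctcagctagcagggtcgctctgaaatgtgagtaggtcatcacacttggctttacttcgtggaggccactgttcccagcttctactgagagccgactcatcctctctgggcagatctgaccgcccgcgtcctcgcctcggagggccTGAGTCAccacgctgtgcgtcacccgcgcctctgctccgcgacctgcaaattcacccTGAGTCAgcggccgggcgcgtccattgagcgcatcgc

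Txnrd1 (chr10:82833951-82897712, plus strand) encodes the cytosolic thioredoxin reductase, which keeps thioredoxin reduced with electrons from NADPH. LV libraries held 60.9, 53.4 and 43.5 CPM at 0 h, 154, 95.2 and 129 CPM at 4 h, and 105, 85.3 and 130 CPM at 8 h. RV libraries held 52.6, 52.9 and 36.1 CPM at 0 h, 173, 120 and 144 CPM at 4 h, and 231, 136 and 161 CPM at 8 h. No stored library overlapped with 0 h in either ventricle. The log2 fold change was 1.26 ± 0.22 and 1.02 ± 0.22 in LV at 4 and 8 h (adjusted p = 0.0379 and 0.0416), and 1.64 ± 0.25 and 1.91 ± 0.25 in RV (adjusted p = 0.00992 and 0.00285).

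One Txnrd1 transcript, ENSMUST00000219368, took a larger share after storage. Its estimated counts were 20.8 to 41.2 in the libraries at 0 h and 71.8 to 427 in the stored ones, or 0.943% to 3.14% and 2.23% to 5.92% of the gene's TPM. The shares overlapped between stored libraries and 0 h. Txnrd1 has 3 starts in the promoter table, of which 1 held the core of the antioxidant response element, TGACNNNGC searched on both strands, at 92 bases before the start. Matches to this core were present in 12.4% of all promoter windows of 300 bases, and the AP-1 site TGACTCA followed by GC matches it as well. Among the other genes it was found once each in Gclm, Srxn1 and Mt2 and not in the windows of Nqo1, Slc7a11, Mt1 and Sod2. Of the 10 genes 8 had an entry in the table, and Hmox1 and Gclc had none.

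Mt1 and Mt2 lie side by side on chromosome 8, with 5513 bases between the end of Mt2 (chr8:94172664-94173568) and the start of Mt1 (chr8:94179082-94180327), both on the plus strand. Mt2 showed the largest rise of the 10 genes. Its LV libraries started from 25.4, 50.8 and 43.4 CPM at 0 h, reached 158, 151 and 436 CPM at 4 h, and held 201, 230 and 624 CPM after 8 h. In RV the libraries held 27.4, 50.5 and 50.4 CPM at 0 h, 210, 199 and 459 CPM at 4 h, and 382, 314 and 777 CPM at 8 h. Every stored library lay far above the highest 0 h library of its ventricle. The log2 fold change was 2.64 ± 0.57 and 3.15 ± 0.58 in LV at 4 and 8 h (adjusted p = 0.0679 and 0.0278), and 2.78 ± 0.48 and 3.55 ± 0.50 in RV (adjusted p = 0.0144 and 0.00348). Without replicate 3, the highest of the stored LV libraries, the change of Mt2 in LV was 1.957 at 4 h (adjusted p = 0.184, no longer called) and 2.43 at 8 h (adjusted p = 0.0520).

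Mt1 rose less. It was measured in LV at 87.3, 141 and 140 CPM at 0 h, at 217, 235 and 556 CPM at 4 h, and at 262, 247 and 658 CPM at 8 h, and in RV at 102, 144 and 153 CPM, 255, 250 and 524 CPM, and 369, 283 and 657 CPM. All stored libraries lay above all 0 h libraries. Its log2 fold change was 1.45 ± 0.48 in LV at 4 h, which was not called (adjusted p = 0.185), and 1.67 ± 0.48 at 8 h (adjusted p = 0.0903). Without LV 8 h replicate 3 the Mt1 change at 8 h was 1.05 and not called (adjusted p = 0.242). In RV it was 1.39 ± 0.40 at 4 h (adjusted p = 0.0748) and 1.74 ± 0.40 at 8 h (adjusted p = 0.0225).

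The libraries with low Ddx3y had the highest Mt1 and Mt2 of their groups at 4 and 8 h in both ventricles. With the summed level of Y-linked genes as a covariate, the change of Mt2 in LV at 8 h was 2.95 ± 0.28 on the log2 scale, against 3.15 ± 0.58 without it, and the change of Mt1 in LV at 4 h was called (1.28 ± 0.26, adjusted p = 0.0434).

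The ratio of Mt2 to Mt1 varied less between libraries than either level. On the TPM scale the LV ratio was 0.374 ± 0.0375 (SD, n = 3) at 0 h, 0.827 ± 0.0722 at 4 h and 1.02 ± 0.111 at 8 h. For RV the ratio was 0.364 ± 0.0462, 0.941 ± 0.0405 and 1.27 ± 0.0777 in the same order. Stored and 0 h ratios did not overlap in any of the 4 comparisons, each at the smallest p an exact two-sided permutation test of 3 against 3 libraries can give, 0.1 (0.114 adjusted over the same 8 comparisons). At 0.313 to 0.417 the ratio was narrow at 0 h, and replicate 3, the highest in both levels at 8 h, had a ratio of 1.09 in LV and 1.34 in RV beside 1.08 and 1.27 in replicate 2. Mt1 shared no 31-base word with any other gene, Mt2 included. An antisense gene overlaps Mt2.

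The bases before both metallothionein genes are shown because both genes rose and are known to be driven through metal response elements. Capitals mark the core of that element, TGCACNC or TGCGCNC, searched on both strands. The bases are from RefSeq (GRCm38.p6), on the plus strand, at chr8:94178839-94179081 for Mt1 and chr8:94172368-94172617 for Mt2.
Mt1: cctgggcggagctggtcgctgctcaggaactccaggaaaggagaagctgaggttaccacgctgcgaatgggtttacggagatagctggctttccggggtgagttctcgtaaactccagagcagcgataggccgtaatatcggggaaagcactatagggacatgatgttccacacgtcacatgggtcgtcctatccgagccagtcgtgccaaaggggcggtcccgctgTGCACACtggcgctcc
Mt2: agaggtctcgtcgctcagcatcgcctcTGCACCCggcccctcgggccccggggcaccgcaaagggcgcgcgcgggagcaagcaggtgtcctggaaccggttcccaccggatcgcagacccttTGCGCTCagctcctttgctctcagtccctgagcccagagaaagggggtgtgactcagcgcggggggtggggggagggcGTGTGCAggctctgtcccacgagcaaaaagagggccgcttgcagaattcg
Within the whole windows of 300 bases, which reach 50 bases past the start that RefSeq gives, the core was found 3 times for Mt1 and 4 times for Mt2. At least 1 match was present in 25.7% of all windows and 4 or more in 0.517%. Mt2 also held the site TGACTCAGC, which matches both the AP-1 site and the core of the antioxidant response element, 79 bases before the start.

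Sod2 (chr17:13006846-13040063, plus strand) encodes the manganese superoxide dismutase of mitochondria and is also known as an NF-kB target. It was measured between 411 and 468 CPM at 0 h, between 495 and 548 CPM at 4 h and between 356 and 525 CPM at 8 h over both ventricles. All 4 h libraries lay above the 0 h libraries, and those at 8 h overlapped with the 0 h libraries. The log2 fold change was 0.24 ± 0.11 in LV and 0.30 ± 0.18 in RV at 4 h (adjusted p = 0.324 and 0.405), and 0.05 and 0.09 at 8 h.

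**Figure D3:**
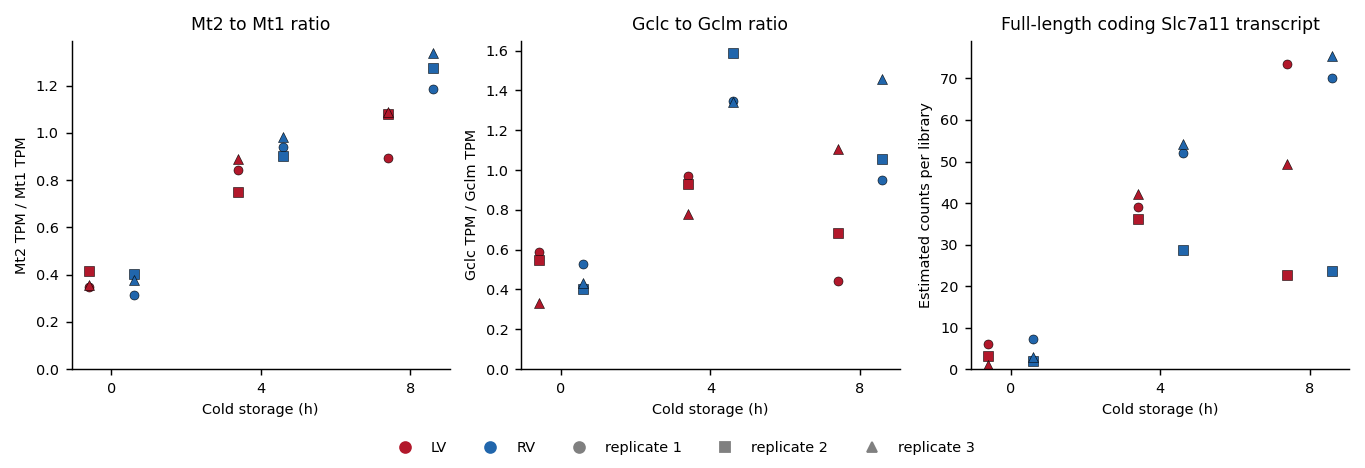
Ratio of Mt2 to Mt1 TPM (left), ratio of Gclc to Gclm TPM (middle) and estimated counts of the full-length coding Slc7a11 transcript (right) by hours of cold storage, with 1 symbol per library in LV (red) and RV (blue). The Mt2 to Mt1 ratio lies between 0.313 and 0.417 at 0 h and between 0.749 and 1.34 after storage, and the Slc7a11 transcript has at most 7.22 counts at 0 h.

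Between 8 h and 4 h none of the 10 genes was called in LV or RV, where edgeR called 0 genes (0%) in all. An unadjusted p under 0.05 was reached by 1180 genes in LV and by 961 in RV. DESeq2 called 0 of the 10 genes there, against 71 genes in LV and 43 in RV in all. Of the 10 genes 0 in LV and 1 in RV, Nqo1, had an unadjusted p under 0.05. Nqo1 was lower at 8 h than at 4 h without overlap in both ventricles, by a log2 fold change of -0.27 ± 0.12 in LV and -0.65 ± 0.18 in RV (adjusted p = 0.606 and 0.599). Gclc had a log2 fold change of -0.60 ± 0.35 in LV, and Mt2 of 0.51 ± 0.54 in LV and 0.77 ± 0.45 in RV. Without LV 8 h replicate 3 Gclc was called lower at 8 h than at 4 h in LV.

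LV and RV differed in 5 of these genes at 8 h when libraries of the same replicate number were compared with each other. The comparison asks whether the 2 ventricles change alike. Same-numbered LV and RV libraries of 1 storage time deviated together from their group means in all 9 pairs, with correlations over genes of 0.325 to 0.697. Without the pairing, edgeR called 0 of the 10 genes between the ventricles at 0, 4 or 8 h, where 0.159%, 0.0133% and 0.0331% of all genes were called, and 1, 0 and 3 of the 10 had an unadjusted p under 0.05. DESeq2 called 0 at 0 and 4 h and 1, Nqo1, at 8 h, and its share over all genes is not given here. The pairs of same-numbered LV and RV libraries of 1 storage time then entered the fit as a block. With this block 5 of the 10 were called at 8 h, 1 higher and 4 lower in LV. There 2.25% of the 15093 genes tested were called higher and 6.53% lower. The blocked fit called 0 of the 10 at 0 or 4 h, where 1.85% and 1.93% of all genes were called.

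Nqo1 was higher in LV than in RV in all 9 pairs, and the LV and RV libraries did not overlap at any time. The ratio of LV to RV was 1.56, 1.35 and 1.41 at 0 h, 1.24, 1.16 and 1.21 at 4 h, and 1.41, 1.46 and 1.91 at 8 h. With the block the log2 difference was 0.53 ± 0.08 at 0 h (adjusted p = 0.00903, a fold of 1.44 and so short of a call), 0.27 ± 0.08 at 4 h (adjusted p = 0.123) and 0.65 ± 0.09 at 8 h (adjusted p = 0.000635, called). Without the pair of 8 h replicate 3 the difference at 8 h was no longer called.

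Gclc, Srxn1 and Txnrd1 were lower in LV than in RV in all 3 pairs at 8 h, and the LV and RV libraries of Srxn1 and Txnrd1 did not overlap. The LV to RV ratio at 8 h was 0.400, 0.420 and 0.720 for Gclc, 0.558, 0.621 and 0.647 for Srxn1, and 0.456, 0.627 and 0.803 for Txnrd1. At 0 h the same ratios were 0.994, 1.11 and 0.926 for Gclc, 1.47, 1.40 and 1.10 for Srxn1, and 1.16, 1.01 and 1.21 for Txnrd1, so that Srxn1 and Txnrd1 were higher in LV in all 3 pairs at 0 h and lower in all 3 at 8 h. With the block the log2 difference at 8 h was -1.0 ± 0.14 for Gclc (adjusted p = 0.000858), -0.72 ± 0.09 for Srxn1 (adjusted p = 0.000549) and -0.71 ± 0.12 for Txnrd1 (adjusted p = 0.00248). Gclc and Srxn1 were called whichever of the 9 pairs was left out, and Txnrd1 was not called without the pair of 8 h replicate 1.

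Hmox1 at 8 h had LV to RV ratios of 0.355, 0.482 and 1.05, and a log2 difference of -0.83 ± 0.25 (adjusted p = 0.0351 with the block). The third pair did not share the direction of the others, and the call was lost without the pair of 8 h replicate 1 or 2. Mt2 at 8 h had ratios of 0.527, 0.732 and 0.803 and a log2 difference of -0.56 ± 0.12 with the block (adjusted p = 0.00662), a fold that fell just short of the call. It was called without the pair of 8 h replicate 2 or 3. Slc7a11, Gclm, Mt1 and Sod2 had log2 differences between -0.23 and -0.01 at 8 h and were not called.

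Markers of cell types differed between the ventricles at 8 h as well. All 7 cardiomyocyte markers lay higher in LV with the block (median 0.22), and 6 of the 7 without it (median 0.12), and none was called. All 7 macrophage markers were lower in LV than in RV, with a median log2 difference of -0.39 with the block, and Cd163 and Mrc1 were called. The 3 adipocyte markers that could be tested, Adipoq, Plin1 and Cfd, were all called lower in LV with the block (median -1.75), with Lep too low to test and median summed levels of 2.47 CPM in LV and 16.9 CPM in RV. Of the 5 red cell markers all lay higher in LV (median 1.31) and Hbb-bs, Hba-a2 and Hbb-bt were called. The neutrophil markers S100a8 and S100a9 were called higher in LV and Csf3r lower, and the fibroblast marker Tcf21 was called lower. With the block 2.25% of all genes were called higher in LV and 6.53% lower. Without the block none of these markers was called. The atrial markers Sln, Myl7, Myl4 and Nppa summed to 263 to 357 CPM in LV and to 119 to 800 CPM in RV at 8 h. The part of these cell types and of atrial tissue in the differences of the 10 genes was not tested.

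**Figure D4:**
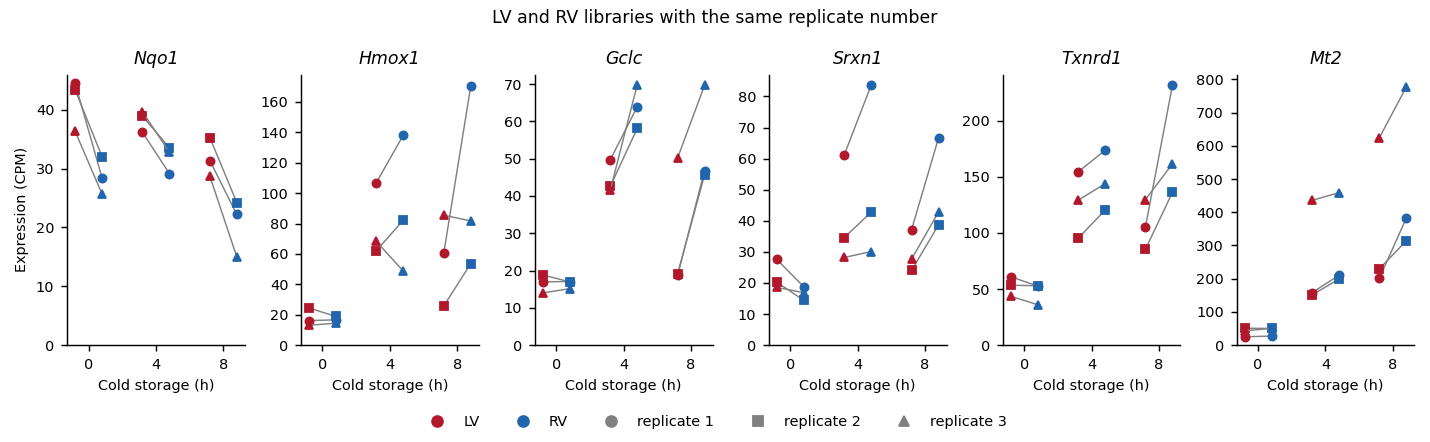
CPM (y axis, linear, from 0) of Nqo1, Hmox1, Gclc, Srxn1, Txnrd1 and Mt2 by hours of cold storage, with a grey line joining the LV (red) and RV (blue) library of the same replicate number. At 8 h all lines of Gclc, Srxn1, Txnrd1 and Mt2 rise towards RV, and those of Nqo1 fall towards RV at every time.

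The change from 0 h itself was smaller in LV than in RV in 3 genes at 8 h when tested with the block. As LV minus RV on the log2 scale, the difference was -1.12 ± 0.13 in Srxn1 (adjusted p = 0.00131), -1.02 ± 0.20 in Gclc (adjusted p = 0.0136) and -0.87 ± 0.17 in Txnrd1 (adjusted p = 0.0133), where 4.72% of all genes were called lower. At 4 h 1 of the 10 genes was called, Srxn1 at -0.69 ± 0.13 (adjusted p = 0.0915), where 0.265% of all genes were called lower. The 3 differences at 8 h were called whichever of the 9 pairs was left out, and that of Srxn1 at 4 h in 4 of these 9 fits. Without the block edgeR called 0 of the 10 genes and 0 genes (0%) in all at either time, with 0 of the 10 at 4 h and 3 at 8 h at an unadjusted p under 0.05, and DESeq2 called 0 of the 10.

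Regulators of the pathway were called higher mainly in RV. Of 9 NRF2 regulators, 1 was called higher in LV at 4 h and 1 at 8 h, where 2.40% and 5.46% of all genes were. In RV 5 were called higher at 4 h and 4 at 8 h, where 6.17% and 13.0% of all genes were, and none was called lower. The difference in change between LV and RV was called for none of the 9 without the block, and with it for Maff (-1.35 ± 0.18, adjusted p = 0.00168) and Mafk (-1.19 ± 0.18, adjusted p = 0.00309) at 8 h. In this blocked test at 8 h 4.72% of all genes were called lower. Bach1, the repressor, was called higher in all 4 comparisons. Its log2 fold change was 1.04 in LV at 4 h and 1.07 at 8 h, and in RV it was 1.10 and then 1.57. Nfe2l2, the gene of NRF2, was called in RV (0.76 ± 0.20 at 4 h and 0.95 ± 0.20 at 8 h) and not in LV (0.53 and 0.42). Keap1 was not called in any, with log2 fold changes between -0.24 and 0.06. Among the small MAF genes, Maff was called in RV at 2.21 and 2.43, and its changes in LV of 1.51 ± 0.49 and 1.15 ± 0.48 were not called (adjusted p = 0.182 and 0.196). Mafk was called in RV at 1.48 and 1.40 and not in LV (1.05 ± 0.36 and 0.24 ± 0.35, adjusted p = 0.204 and 0.707). Sqstm1, whose protein p62 binds KEAP1, was called in RV at 4 h.

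Few genes were called in the lists of other enzymes. In RV 6.17% and 13.0% of all genes were called higher at 4 and 8 h. A single call in a list of 7, 9 or 13 genes lay near the share at 8 h. Of 13 other glutathione genes none was called in LV, 2 were called higher in RV at 4 h (Slc3a2, the partner of xCT, and Chac1, which degrades glutathione) and 1 in RV at 8 h (Slc3a2, at 1.32 ± 0.24). Of 9 other thioredoxin and peroxiredoxin genes 1 was called, Txn1 in RV at 8 h (0.98 ± 0.31, adjusted p = 0.0665). Osgin1, an NRF2 target among 7 quinone and xenobiotic genes, was called higher in RV at 4 and 8 h (0.94 and 1.43), and Ephx1 was called lower in RV at 4 h (-1.13). Within a ventricle the block was the replicate number, which joins libraries of different hearts. With it Ephx1 was called lower in RV at 8 h too (-0.83 ± 0.29, adjusted p = 0.0805). None of 6 genes of NADPH supply, 8 genes of heme and iron handling or 3 superoxide and peroxide enzymes was called in any of the 4 comparisons without the block, and their list medians lay between -0.08 and 0.21. The block called 1 gene of each of these 3 lists lower in RV at 8 h, where it called 15.5% of all genes higher and 8.81% lower. They were Idh1 (-0.71 ± 0.22, adjusted p = 0.0595), an isocitrate dehydrogenase that makes NADPH, Slc40a1 (-0.78 ± 0.30, adjusted p = 0.0957), the iron exporter ferroportin, and Cat (-0.75 ± 0.27, adjusted p = 0.0861), catalase.

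Of 5 metal response genes, the zinc importer Slc39a14 was called higher in RV at 4 and 8 h, at a log2 fold change of 0.76 each time, and none was called in LV. Of 6 glucocorticoid-induced genes, Fkbp5 was called higher in all 4 comparisons, from 1.41 to 1.60, Cdkn1a in RV at 2.55 and 3.0, and Sgk1 in RV at 8 h at 1.39. Over all genes 2.40% and 5.46% were called higher in LV at 4 and 8 h, and 6.17% and 13.0% in RV. At 4 h in RV the block called 4 of the 6, against 2 without it, adding Sgk1 (1.02 ± 0.31, adjusted p = 0.0825) and Zbtb16 (1.20 ± 0.36, adjusted p = 0.0753), where it called 8.45% of all genes higher and 5.4% lower. Cdkn1a is also a target of p53.

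**Figure D5:**
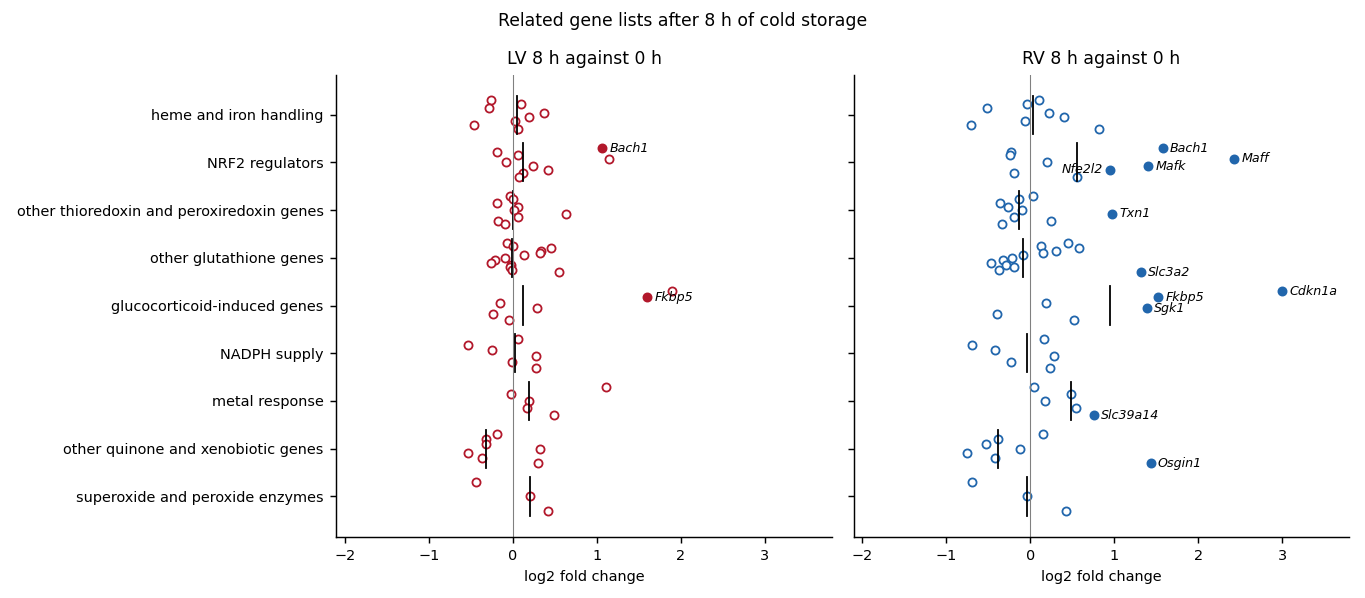
Without the block, log2 fold change at 8 h against 0 h (x axis) of each gene in the related lists (y axis) in LV (left, red) and RV (right, blue), with filled circles and names for called genes, open circles for the others and a black line at the list median. Bach1 and Fkbp5 are filled in both ventricles, and the lists of NADPH supply, heme and iron handling, and superoxide and peroxide enzymes hold no filled circle.

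In bulk tissue, fewer cells of a type and less RNA per cell cannot be told apart, and the makeup of the libraries moved with storage. The summed level of 5 neutrophil markers was 0.982 to 2.51 CPM at 0 h, 3.42 to 9.11 CPM at 4 h and 9.83 to 18.2 CPM at 8 h over both ventricles. Csf3r was called higher in all 4 comparisons, S100a8 and S100a9 in LV at 8 h, and Ly6g had 0 counts in all 6 libraries at 0 h and in 11 of the 12 stored ones. The 7 macrophage markers summed to 128 to 250 CPM at 0 h and 166 to 385 CPM at 8 h. Of these 7, 3 (Adgre1, Mrc1 and C1qb) were called higher in RV at 8 h, where 13.0% of all genes were. The 7 cardiomyocyte markers summed to 55470 to 67006 CPM at 0 h and 27977 to 55087 CPM at 8 h. All 7 were present in every library, and Myh6 was called lower in LV at 8 h. In RV the endothelial marker Egfl7 was called lower at 4 h (-1.97) and at 8 h, as was the mural marker Kcnj8 (-1.32 and -1.48). Pdgfrb, also mural, was called lower at 4 h and the fibroblast marker Tcf21 higher at 8 h. At 4 h in RV 0 of 6 endothelial and 1 of 5 mural markers lay above 0 h (median log2 fold changes -0.22 and -0.19). At 8 h in RV 4 of the 6 and 3 of the 5 did (medians 0.30 and 0.16), as did 5 of 6 fibroblast markers (median 0.49). Mitochondrial genes took 22.7% to 32.6% of the counts at 0 h, 24.9% to 27.7% at 4 h and 32.0% to 34.4% at 8 h.

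Red cell markers moved with storage too, and Hmox1 acts on heme. The 5 red cell markers summed to 2.40 to 6.21 CPM at 0 h, 5.60 to 107 CPM at 4 h and 3.96 to 196 CPM at 8 h. Hbb-bs (3.90 ± 1.17, adjusted p = 0.0997) and Hbb-bt (adjusted p = 0.0851) were called higher in LV at 8 h, where 5.46% of all genes were. In RV none was called without the block, and with it Hbb-bs and Hba-a2 were called at 4 h and all 4 hemoglobin genes at 8 h. The block called 8.45% of all genes higher in RV at 4 h and 15.5% at 8 h. Replicate 1 had the highest red cell sum of each of the 4 stored groups, at 84.8, 196, 107 and 52.3 CPM in LV at 4 and 8 h and RV at 4 and 8 h, and the highest Hmox1 in 3 of them, with LV at 8 h as the exception. RV 8 h replicate 2 and RV 4 h replicate 2, with red cell sums of 3.96 and 5.60 CPM within the range at 0 h, held 53.6 and 82.3 CPM of Hmox1, above all 0 h libraries. The part of these cell types in the changes of the 10 genes was not tested. Without RV 8 h replicate 3 the same 7 genes were called in RV at 8 h.

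Over the 18 libraries, which fall into 3 storage times and 2 ventricles so that these correlations carry the differences between groups, Hmox1 and Txnrd1 followed each other most closely among the NRF2 targets (Pearson's r = 0.95 of log2 CPM, n = 18). Mt1 and Mt2 had r = 0.97, and Slc7a11 had r = 0.92 with Mt2 and 0.84 with Hmox1. Nqo1 had negative r with Hmox1 (-0.34), Txnrd1 (-0.38) and Slc7a11 (-0.51). Sod2 stayed at 0.44 or below with every other gene.

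Among 9962 genes with a mean of at least 5 CPM, a search that left out the 10 themselves, the 3 most alike by the same measure were Pde4b, Cxcl5 and Eif1a for Txnrd1 (r = 0.968 to 0.986), and Fgl2, Cxcl5 and Hivep3 for Hmox1 (r = 0.945 to 0.965). For Gclc they were Peli1, Arl13b and Stat3, and for Srxn1 Map2k3, Hbegf and Cars. The genes most like Mt1 were Ifi209, Slfn8 and Mx1, and those most like Mt2 were Rtp4, Fas and Ifit1 (r = 0.973 to 0.982). Slc7a11 was most like Eda2r, Vcan and Fstl1, and Nqo1 most like Hspb7, Paip1 and Homer2. Gclm reached r = 0.819 with 2210407C18Rik and less with Amer1 and Cblb, and Sod2 0.912 with Surf4.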

How the data were processed

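Total RNA of LV and RV was sequenced, and the authors deposited for each library the estimated count and the TPM value of each transcript, computed with Kallisto on GRCm38 transcripts, with no normalization across libraries. The tool was run with default parameters, and the study's methods give its version. Reads shared between transcripts had been divided by the authors' tool, which affects genes with isoforms or copies. Estimated counts of 110203 of 111462 transcripts were summed to GENCODE M21 genes, rounded, filtered with filterByExpr, scaled by TMM and tested with edgeR 4.0.16 in R 4.3.3. Storage times were compared within the 9 libraries of a ventricle, and ventricles over all 18. Levels per gene were given as CPM, or as summed TPM between genes. Python 3.11.15 and pandas 2.3.3 were used for sums.

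The 10 genes, the related lists and the tests were chosen with earlier results of these data known. Besides the 10, the text names up to 3 called genes of each related list with the largest change at 8 h against 0 h, Nfe2l2, Keap1 and Bach1, and the 3 genes outside the 10 most correlated with each. Sqstm1, Chac1, Ephx1, Idh1, Slc40a1, Cat, Zbtb16, Ddx3y and the marker genes were named after their values were seen.

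The labels give the same replicate numbers to all groups. The correlation of their deviations from the group means was over 0.1 in every pair between LV and RV at the same time (0.325 to 0.697), between the RV groups and between 4 h and 8 h in LV, and not between 0 h and the stored groups in LV. Between LV and RV, same-numbered libraries of 1 storage time were taken as pairs, and the pairs were the block. Within a ventricle the block was the number itself, which joins different hearts, since each heart had 1 storage time. Ddx3y differed there between 0 h and stored libraries that shared the number 2 or 3. The blocked fit stands beside a result where this correlation was over 0.1 and the block changed a call (5 of the 10 genes called between LV and RV at 8 h, against 0). Alternatives were DESeq2 1.42.0, length offsets, size factors by RLE, all genes kept whatever their counts, no mitochondrial genes, a Y-linked covariate, all libraries in 1 fit, the replicate block and each library left out. Leaving out each pair of libraries in the blocked fit was added after seeing the data. Tests were tried on simulated data. The other genes most like Sod2 are not reported here.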

Additional observations from a re-analysis of the deposited data

Results flagged for a closer look

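In 4 results the change from 0 h differed between LV and RV by a test of the difference itself. This was the fit with the pairs of same-numbered LV and RV libraries of 1 storage time as a block. As LV minus RV on the log2 scale, the difference was -0.69 for Srxn1 at 4 h, and -1.12 for Srxn1, -1.02 for Gclc and -0.87 for Txnrd1 at 8 h. Without the block edgeR called none of them.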

How the results depend on the processing

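With 1 library left out at a time, the number of the 10 genes called ranged from 0 to 6 in LV at 4 h and at 8 h against 0 h, 0 to 1 between 8 and 4 h in LV, 3 to 7 in RV at 4 h, 7 to 8 in RV at 8 h, 0 to 2 between LV and RV at 8 h, and was 0 between 8 and 4 h in RV, between LV and RV at 0 and 4 h and for the differences in change. With length offsets 3 genes were called in LV at 4 h. Between LV and RV at 8 h DESeq2 called 1 and the fit blocked on the LV and RV pairs 5. The shares of all genes called with length offsets or by DESeq2 in these comparisons are not given here. The block on pairs called 1 difference in change at 4 h and 3 at 8 h. With each pair of libraries left out of it the counts were 3 to 5 between LV and RV at 8 h, 0 to 1 for the difference at 4 h and 3 to 5 at 8 h. Of the 15192 to 15361 genes tested, these fits called 860 to 1564, 0 to 196 and 545 to 1144 in the same order. In LV against 0 h, where same-numbered libraries did not deviate together in every pair, the block on the number called 7 genes at 4 h and 5 at 8 h. It called 3.86% and 8.1% of all genes higher there. In the related lists it called Slc39a14 at 4 h and Maff and Cdkn1a at 8 h in addition. The block on the number changed no call of the 10 in RV against 0 h or between 8 and 4 h. With 1 library left out, the log2 fold change of 4 results that were not called turned: Gclm at 8 h ranged from -0.059 (without LV 0 h replicate 1) to 0.21 in LV, with -0.039 without LV 8 h replicate 3, and from -0.063 (without RV 0 h replicate 1) to 0.28 in RV, Sod2 at 8 h in RV from -0.016 (without RV 8 h replicate 2) to 0.25, and Mt2 between LV and RV at 8 h from -1.19 to 0.030 (without LV 8 h and without RV 8 h replicate 3). The cause of these shifts was not tested. Groups of 3 limit all comparisons, and Slc7a11 rests on 13 to 108 counts per library.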
